A study of Homo sapiens with 8 samples.

Results

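Transcripts of 10 genes of the hypoxia-inducible factor (HIF) pathway were read on 8 two-colour arrays of human cancer cell lines. The genes were taken by symbol, by a rule that uses no measured value, although earlier results of these data were known when they were chosen: EPAS1, HIF1A, EGLN3, VEGFA, ADM, ANGPTL4, SLC2A1, NDUFA4L2, CA9 and CCND1. They were 10 of the 43317 genes on the array and were read by 12 of its 58201 probes, because HIF1A and VEGFA each had 2 probes. Their level was compared between 4 lines in the mock channel, and their ratio of treated over mock RNA was given on each array.

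Each array held Cy3-labelled RNA of mock cells, labelled as not transfected, and Cy5-labelled RNA of treated cells of the same line. PC3, a prostate cancer line, received bisamide, a small molecule described as an inhibitor of pirin, for 24 h or for 48 h, and miR-125b-1-3p on another array. C4-2, a prostate cancer line of LNCaP origin, received miR-199-3p. The renal carcinoma line 786-O received miR-532-5p or miR-532-3p. The bladder cancer line T24 received miR-140-5p or miR-140-3p. Every treatment had 1 array and no dye swap. No ratio could therefore be tested, and precision is limited by how few arrays there are.

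HIF is a heterodimer of an oxygen-labile α subunit and the stable β subunit ARNT. With oxygen present, prolyl hydroxylases mark the α subunit, the product of VHL binds the marked protein, and the proteasome degrades it. In hypoxia, or when VHL is lost, the α subunits persist and switch on genes for vessel growth, glucose uptake, glycolysis and pH control. The line 786-O lacks functional VHL and is known for HIF-2α, the product of EPAS1, without HIF-1α protein, the product of HIF1A. The other lines were set beside it to see which transcripts of the pathway were higher in 786-O. The labels give no VHL status for any line, and 786-O is also the only renal line. VHL status therefore cannot be told apart from tissue of origin or other differences between lines. In RNA of whole cultures, fewer cells with a transcript and less of it per cell cannot be told apart.

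The transfected miRNAs are shown because they are the treatments of 6 of the 8 arrays. The mature strands were taken from RefSeq (GRCh38.p14), with bases 2 to 8, the seed, in capitals. The labels name miR-199-3p without a or b, and the table gives the same mature strand for both.

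miR-532-5p: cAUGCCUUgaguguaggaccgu
miR-532-3p: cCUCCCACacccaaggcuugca
miR-140-5p: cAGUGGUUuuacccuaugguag
miR-140-3p: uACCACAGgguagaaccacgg
miR-199-3p: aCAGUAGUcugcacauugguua
miR-125b-1-3p: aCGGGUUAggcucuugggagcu

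The 6 strands had 6 different seeds. Both strands of miR-532 lie on the plus strand of the X chromosome, miR-532-5p at chrX:50003167-50003188 and miR-532-3p at chrX:50003204-50003225.

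For 4 genes an array probe is shown, because signals at background of HIF1A, NDUFA4L2 and CA9 and the order of the lines for VEGFA are read from it. The HIF1A probe is the second of that gene's probes, and the VEGFA probe is the brighter. Coordinates are those the files give on GRCh37.

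HIF1A, chr14:62211472-62211531, plus strand: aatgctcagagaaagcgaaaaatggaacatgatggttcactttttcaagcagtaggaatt
VEGFA, chr6:43746223-43746634, plus strand: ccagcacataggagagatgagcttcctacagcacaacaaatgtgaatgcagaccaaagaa
NDUFA4L2, chr12:57629358-57629546, minus strand: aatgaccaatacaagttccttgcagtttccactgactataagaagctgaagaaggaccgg
CA9, chr9:35677817-35679204, plus strand: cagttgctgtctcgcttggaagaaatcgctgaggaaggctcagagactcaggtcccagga

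The probes of VEGFA, NDUFA4L2 and CA9 have 60 bases each, and map over 412, 189 and 1388 bases of genome, so each bridges an intron. The other probes map without a gap. The accession of 11 of the 12 probes carried the same symbol in the RefSeq gene table, and that of NDUFA4L2 carried the symbol COXFA4L2.

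Levels below are log2 Cy3 signals after background correction and quantile normalization, and a probe counts as measured where the scanner software marked it well above background. Lines were compared with limma over 6 mock RNAs, 3 from PC3, 1 from C4-2 and 1 each from 786-O and T24, whose 2 arrays were averaged as they may carry the same mock RNA. A difference was called at an adjusted p (Benjamini-Hochberg over 20449 genes) under 0.05. Nothing in the labels says that the PC3 mocks came from separate cultures, so p-values measure the spread between these samples, which may be technical. That spread came from PC3 alone, and the other lines were assumed to vary as PC3 does. The PC3 mocks were on the 24 h array, the 48 h array and an array without a stated time. A difference in time cannot be told apart from that spread. For the genes here that were tested, the SD of the PC3 mocks ran from 0.08 (CCND1) to 0.70 (EPAS1), beside a median of 0.07.

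The arrays did not have the same brightness. The 95th percentile of the unnormalised Cy3 signal was 967 to 1039 on the PC3 arrays, 773 and 796 on the T24 arrays, 413 on the C4-2 array and 398 and 404 on the 786-O arrays. Without normalization between arrays the median gene was 0.44 lower in 786-O than in PC3 on the log2 scale, against 0.01 lower with it, and 8.22% instead of 53.7% of all calls were higher in 786-O. For EPAS1, CCND1, PFKP and PKM the order of lines turned with it, as given beside their values. The line labels were checked against markers. KLK3, the gene of prostate-specific antigen, was at 13.80 in C4-2 and not above background in the other 3 lines. All 4 renal markers were higher in 786-O than in PC3 and C4-2, but against T24 only 1 was higher and 1 was lower. PAX8, a renal lineage factor, was at 8.75 in 786-O and 8.58 in T24, and PAX2, another, was at 7.87 and 7.75 in 786-O and at 9.02 and 9.14 in T24. GATA3, a urothelial factor, was not above background in T24, and only 2 of the 5 urothelial markers were measured well enough in any line to be tested. These were PPARG and UPK3A, and neither was called higher in T24 than in another line. PPARG was at 7.16 and 7.18 in T24 and at 9.24 to 9.68 in PC3, and UPK3A was above background in C4-2 only. The urothelial markers thus did not bear out the label of T24. The third PC3 mock, on the miR-125b-1-3p array, stood apart from the other pair. It had 111 and 87 genes more than 1 log2 unit away from the first and the second mock, while those mocks had 22 such genes between them.

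In the plot of mock levels, 786-O had the highest point of ANGPTL4, ADM, SLC2A1, EGLN3, CCND1 and EPAS1, C4-2 had the highest of VEGFA, and HIF1A was at the floor in 786-O alone.

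**Figure D1:**
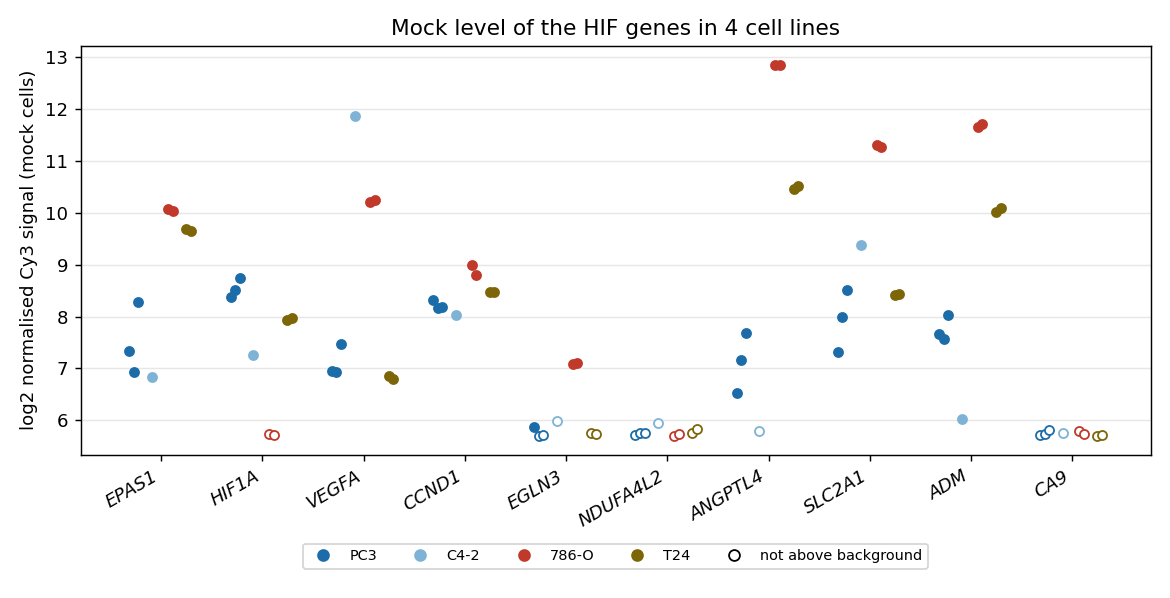
Log2 normalised Cy3 signal of mock cells (vertical axis) for the 10 genes (horizontal axis), 1 point per array, coloured by line; open points were not well above background. ANGPTL4 reached 12.86 in 786-O, NDUFA4L2 and CA9 were open in every line, and HIF1A was open at 5.73 and 5.74 in 786-O.

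Of the genes for the α subunits, 786-O had low HIF1A and high EPAS1. HIF1A, which codes for HIF-1α, was not above background on either 786-O array, with unnormalised Cy3 signals of 20.7 and 19.8, close to the array medians of 23.8 and 23.0. Its signals were 450.4, 475.8 and 622 in PC3, 248 and 262 in T24 and 76.7 in C4-2, so no other line overlapped 786-O. The second HIF1A probe gave 20.5 and 22.2 in 786-O, again not above background, against 59.8, 59.8 and 76.2 in PC3, 43.5 and 46.5 in T24 and 28.6 in C4-2. The Cy5 channels of the treated 786-O cells gave 15.9 on both arrays with the brighter probe. HIF1A was thus not detected by either probe in either channel of either 786-O array, and this bounds the level and does not show it to be absent.

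Against the lowest measurable signal, HIF1A was at least 6.73-fold lower in 786-O than in PC3, at least 4.47-fold lower than in T24 and at least 2.77-fold lower than in C4-2 (limma, adjusted p = 0.00268, 0.00857 and 0.00948). These folds are bounds, because the dim side was set to the higher of its own signal and the dimmest measured probe of the array. Among the other lines, HIF1A was lower in C4-2 than in PC3 by 1.28 ± 0.16 (SE) on the log2 scale (adjusted p = 0.00715), while T24 was not called against PC3 (adjusted p = 0.0618) or C4-2 (adjusted p = 0.0587). Without normalization between arrays the call against C4-2 was lost (adjusted p = 0.0567).

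EPAS1, which codes for HIF-2α, was high in 786-O and T24. Its log2 levels were 10.07 and 10.03 in 786-O, 9.70 and 9.65 in T24, 7.34, 6.93 and 8.29 in PC3 and 6.84 in C4-2. The 786-O and T24 arrays all lay above the PC3 and C4-2 arrays, and the PC3 mocks ranged over more than 1 unit. EPAS1 was 2.53 ± 0.59 (SE) higher in 786-O than in PC3 and 3.21 ± 0.72 higher than in C4-2 on the log2 scale (limma, adjusted p = 0.0421 and 0.0362). In T24 it was 2.83 ± 0.72 above C4-2 (adjusted p = 0.0479), and 2.15 ± 0.59 above PC3, which missed the threshold (adjusted p = 0.0663) but passed without PC3 mock 3 (0.00946). The neighbours 786-O and T24 were not distinguishable (0.38 ± 0.72, adjusted p = 0.753), nor were PC3 and C4-2 (adjusted p = 0.391). The order of the first pair depends on the normalization: the unnormalised signal was 906 and 901 in T24 and 630 and 608 in 786-O. The EPAS1 calls of 786-O rest on the PC3 mocks: without PC3 mock 1 or PC3 mock 2 the adjusted p was 0.119 and 0.0822 against PC3, and 0.0894 and 0.0521 against C4-2. The call between T24 and C4-2 was lost in the same way (adjusted p = 0.108 and 0.0625). Without normalization between arrays the difference of 786-O to PC3 was 1.42 (adjusted p = 0.151) and that to C4-2 2.88 (0.0925).

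**Figure D2:**
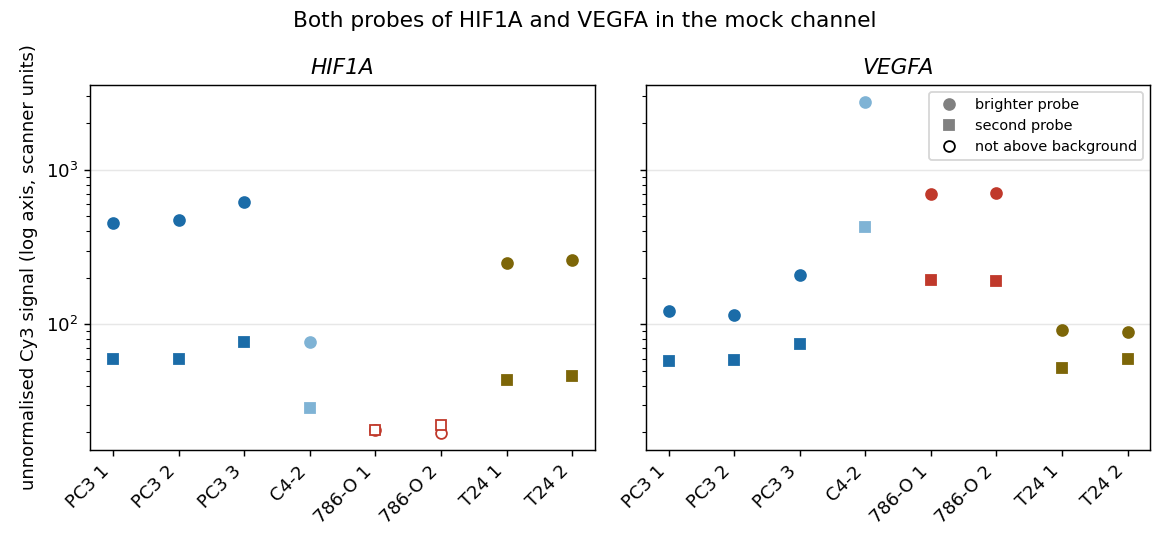
Unnormalised Cy3 signal (log axis, scanner units) of both probes of HIF1A (left) and VEGFA (right) on each mock channel; circles are the brighter probe, squares the second, and open symbols were not well above background. Both HIF1A probes were open in 786-O, and both VEGFA probes were highest in C4-2, at 2763 and 425.

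EGLN3 codes for PHD3, a prolyl hydroxylase that acts on the α subunits and whose own gene is a HIF target. It was measured in the mock channel on both 786-O arrays, at 7.09 and 7.11, and on 1 of 3 PC3 arrays, at 5.87. It was not above background in C4-2 and T24. In 786-O its fitted difference to PC3 was 1.34 ± 0.09 (SE) on the log2 scale, which rests on 2 PC3 signals at background and ran from 0.88 to 5.86 over the alternative settings. It was at least 2.17-fold higher than in C4-2 and at least 2.37-fold higher than in T24 (limma, adjusted p = 0.00379, 0.00634 and 0.00838). The call against C4-2 was lost under 5 settings, plain background subtraction, normexp without an offset, both uses of the processed signal, and the Cy5 channel (adjusted p = 0.0548 to 0.15).

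Of the secreted targets, ANGPTL4 and ADM had 1 order over the lines and VEGFA another. ANGPTL4, an inhibitor of lipoprotein lipase, was at 12.85 and 12.86 in 786-O, 10.47 and 10.51 in T24 and 6.53, 7.16 and 7.68 in PC3, and was not above background in C4-2. The groups did not overlap. It was 5.73 ± 0.49 (SE) higher in 786-O than in PC3 on the log2 scale, a 53.1-fold difference, and at least 123-fold higher than in C4-2 (limma, adjusted p = 0.00533 and 0.00432). The gap to T24, 2.37 ± 0.60, missed the threshold (adjusted p = 0.0635), although it passed without PC3 mock 3 (adjusted p = 0.0303). T24 in turn was 3.36 ± 0.49 above PC3 (adjusted p = 0.0166, and 0.0664 without PC3 mock 2).

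ADM codes for adrenomedullin, a vasodilator peptide, and followed the same order. Its log2 levels were 11.66 and 11.71 in 786-O, 10.01 and 10.09 in T24, 7.66, 7.56 and 8.03 in PC3 and 6.03 in C4-2. No line overlapped another, and all 6 pairs of lines were called for this gene alone among the 10. The share of all genes called in all 6 pairs is not given here, and the share called in single pairs was 25.3% to 50.7%. The difference between 786-O and PC3 was 3.94 ± 0.21 (SE) on the log2 scale, that to C4-2 5.66 ± 0.26 and that to T24 1.64 ± 0.26 (limma, adjusted p = 0.00254, 0.0015 and 0.0255). The last of these was lost without PC3 mock 1 (adjusted p = 0.0762) or PC3 mock 2 (0.061), and without normalization between arrays, where it was 0.76 (adjusted p = 0.155).

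VEGFA, the main growth factor for blood vessels, was highest in C4-2, above 786-O. Its log2 level was 11.86 in C4-2, 10.21 and 10.24 in 786-O, 6.95, 6.92 and 7.47 in PC3 and 6.86 and 6.80 in T24. PC3 and T24 lay next to each other and the rest lay apart. VEGFA was 1.63 ± 0.32 (SE) lower in 786-O than in C4-2 (limma, adjusted p = 0.0262), and 3.11 ± 0.26 and 3.40 ± 0.32 higher than in PC3 and T24 (adjusted p = 0.00518 and 0.00988), all on the log2 scale. The call against C4-2 was lost without PC3 mock 1 (adjusted p = 0.0628) or PC3 mock 2 (0.0585). PC3 and T24 were not called (adjusted p = 0.468). The second VEGFA probe kept C4-2 first and 786-O next, at 9.51 and at 8.49 and 8.48, against 6.33 to 6.50 in PC3 and 6.37 and 6.47 in T24.

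SLC2A1 codes for the glucose transporter GLUT1. Its log2 levels were 11.31 and 11.27 in 786-O, 9.37 in C4-2, 8.42 and 8.44 in T24 and 7.33, 7.99 and 8.51 in PC3. T24 fell inside the range of PC3, and 786-O lay above all. It was 3.35 ± 0.50 (SE) higher in 786-O than in PC3 and 2.86 ± 0.62 higher than in T24 on the log2 scale (limma, adjusted p = 0.0162 and 0.0466). Both calls were lost without PC3 mock 2. The call against T24 was also lost without normalization between arrays, where the difference was 2.00. It was lost as well with no filter on dim probes, with the quantile normalized processed signal and with the mean over probes. The difference to C4-2, 1.92 ± 0.62, was not called (adjusted p = 0.0811), but passed without PC3 mock 1 (0.0463) or PC3 mock 3 (0.0353).

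CCND1, the cyclin D1 gene that drives entry into S phase and is a known target of HIF-2α in renal carcinoma, differed little between lines. Its log2 levels were 8.99 and 8.81 in 786-O, 8.48 and 8.47 in T24, 8.32, 8.17 and 8.18 in PC3 and 8.03 in C4-2. It was 0.68 ± 0.09 (SE) higher in 786-O than in PC3 and 0.87 ± 0.11 higher than in C4-2 (limma, adjusted p = 0.0114 and 0.00884), and 0.43 ± 0.11 above T24, which was not called (adjusted p = 0.0612) and was -0.47 without normalization between arrays (adjusted p = 0.0622). Against PC3 this order turned with the normalization. The unnormalised signal was lower in 786-O, at 285 and 246, than in PC3, at 428, 360 and 395, and without normalization between arrays the difference was -0.52 (adjusted p = 0.0202).

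The remaining targets were not measured in any mock. NDUFA4L2, which lowers oxygen use by mitochondria, had unnormalised Cy3 signals of 19.2 to 25.8 over the 8 arrays, with 19.7 and 21.1 in 786-O. CA9 codes for carbonic anhydrase IX, a membrane enzyme that handles acid in hypoxic tumours and is a target of HIF-1α. Its Cy3 signals were 18.9 to 24.7, with 23.2 and 21.5 in 786-O. Neither gene rose above background in any line, and neither entered the test. CA12, a related carbonic anhydrase that was on a list of other targets, was measured on both 786-O arrays, at 8.98 and 9.03.

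Set against all genes, the count of calls was high for 786-O. Of the 8 genes tested, 8 were called between 786-O and PC3, 7 of them higher in 786-O, where 37.4% of all tested genes were called. Between 786-O and C4-2 there were 7, with 5 higher, against 40.7%, and between 786-O and T24 there were 5, with 4 higher, against 25.3%. The median difference of the 8 genes was 2.82, 1.52 and 1.49 on the log2 scale in these pairs, beside -0.01 over all genes in each. Without normalization between arrays 7, 5 and 3 genes were called, of which 5, 4 and 2 were higher in 786-O. Counts are for genes that passed a filter on low signal, and a gene that passed because 1 line was bright was likely to differ. EGLN3 was such a gene, measured on every array of 786-O only. Its calls as higher in 786-O, which these counts include, were thus favoured by the filter. In the pairs without 786-O, 2 of 8 were called between T24 and PC3 (32.5% of all genes), 3 between C4-2 and PC3 (50.7%) and 5 between T24 and C4-2 (41.4%). EGLN3 and ADM were higher in 786-O than in each of the other 3 lines, as were 6.24% of all genes, with the calls of EGLN3 against C4-2 and of ADM against T24 lost under the settings named above, and HIF1A was lower than in each, as were 2.5%.

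**Figure D3:**
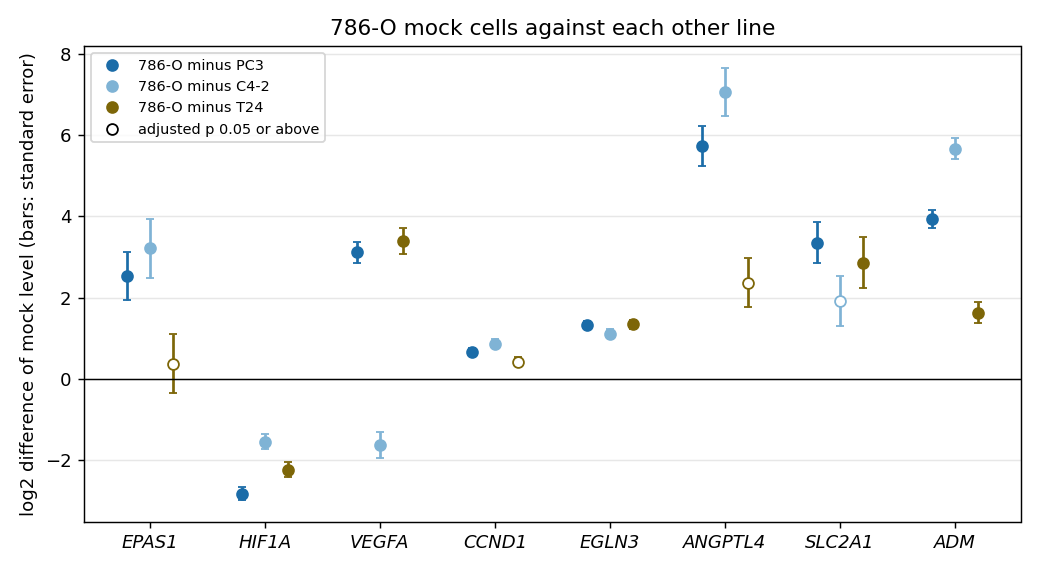
Log2 difference of the mock level between 786-O and each other line for the 8 genes tested, with standard errors; filled points had an adjusted p under 0.05. HIF1A was below 0 in all 3 comparisons, VEGFA only against C4-2, and the bound for ANGPTL4 against C4-2 was 6.95. Points against a line where the gene was not above background (HIF1A in 786-O, EGLN3 in C4-2 and T24, ANGPTL4 in C4-2) are fitted values of a difference known only as a bound.

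Other genes of the pathway were read from lists written from general knowledge. Of 14 genes of the HIF machinery, such as VHL, ARNT and the hydroxylases EGLN1 and EGLN2, 3 were higher and 3 lower in 786-O than in PC3, 4 and 3 than in C4-2, and 1 and 3 than in T24. The share called was 42.9%, 50% and 28.6%, beside 37.4%, 40.7% and 25.3% of all genes. None was called in one direction against all 3 lines, beside 6.24% of all genes called higher and 2.5% called lower than in each. VHL itself, whose product is not functional in 786-O, was at 10.81 there, beside 10.84 in PC3, 10.94 in C4-2 and 11.21 in T24, and none of these differences was called (adjusted p = 0.385 to 0.93).

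Among glucose metabolism targets, 19 of 20 were tested. In 786-O, 5 were higher and 0 lower than in PC3, 3 higher and 6 lower than in C4-2, and 6 higher and 2 lower than in T24. That is 26.3%, 47.4% and 42.1% of the list, beside 37.4%, 40.7% and 25.3% of all genes. Higher than in all 3 lines were SLC16A3, PFKP and PKM, 3 of the 19, as were 6.24% of all genes. SLC16A3, the lactate exporter MCT4, was 1.25 ± 0.20 (SE) above PC3, 2.01 ± 0.25 above C4-2 and 1.46 ± 0.25 above T24 (limma, adjusted p = 0.0184, 0.00902 and 0.0289). PFKP, a phosphofructokinase, was 1.83, 0.84 and 0.46 above PC3, C4-2 and T24, and PKM, pyruvate kinase, 0.69, 0.85 and 0.79, on the log2 scale. Without normalization between arrays PKM was lower in 786-O than in PC3, at -0.61 (adjusted p = 0.0046), and at -0.08 against T24 (0.574). PFKP was then at -0.31 against T24 (0.0375), and SLC16A3 at 0.35 against PC3 (0.157), so none of the 3 was called higher than all lines.

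Among other hypoxia targets, 26 of 28 were tested. In 786-O, 10 were higher and 4 lower than in PC3, 8 higher and 13 lower than in C4-2, and 8 higher and 3 lower than in T24. That is 53.8%, 80.8% and 42.3% of the list, beside 37.4%, 40.7% and 25.3% of all genes. Of these, 7 were higher than in all 3 lines, as were 6.24% of all genes, and 1 was lower, as were 2.5%. LOXL2, a collagen cross-linking enzyme, was 3.11 ± 0.21 (SE) above PC3, 2.58 ± 0.25 above T24 and at least 46.2-fold above C4-2 (limma, adjusted p = 0.00345, 0.0107 and 0.00145). PLIN2, which coats lipid droplets, was 3.32 and 3.09 above PC3 and T24 on the log2 scale and at least 18.5-fold above C4-2. CA12 was 2.38 and 3.02 above PC3 and C4-2 and at least 8.86-fold above T24. The 1 that was lower, ANKRD37, was named after its values were seen, and had log2 differences of -1.09 to PC3, -5.21 to C4-2 and -1.49 to T24. The median difference between 786-O and C4-2 was -0.55 for this list, where 13 of the 26 genes were called lower in 786-O, beside 4364 of all 20449 genes. Between C4-2 and PC3, 17 were higher in C4-2 and 4 lower. That is 80.8% of the list, beside 50.7% of all genes, where 5624 were higher and 4748 lower.

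The promoters of members were searched for the core of the HIF binding site, ACGTG or GCGTG, on both strands. RefSeq (GRCh38.p14) gave 300 bases around the start site, 250 before and 50 after, for 7 of the genes. A match stood in the promoter of 6 of them, EPAS1, HIF1A, SLC2A1, ADM, ANGPTL4 and CA9, and in 48.4% of all 35116 promoters. ACGTG alone stood in 21.4% of all promoters and, among the genes here, in those of ANGPTL4 and CA9. EGLN3 had no match in its window, and HIF1A had one in 1 of its 2 windows. The promoters of ANGPTL4 and ADM, which were measured in 786-O, are shown beside that of CA9, which was at background, with the match in capitals.

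ANGPTL4, chr19:8363905-8364204, plus strand: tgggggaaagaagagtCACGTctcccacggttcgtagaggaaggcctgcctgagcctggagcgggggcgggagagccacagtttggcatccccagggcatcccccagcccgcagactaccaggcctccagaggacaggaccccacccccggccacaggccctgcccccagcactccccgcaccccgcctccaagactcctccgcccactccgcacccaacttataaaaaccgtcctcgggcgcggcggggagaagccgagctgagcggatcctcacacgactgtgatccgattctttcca
ADM, chr11:10304823-10305122, plus strand: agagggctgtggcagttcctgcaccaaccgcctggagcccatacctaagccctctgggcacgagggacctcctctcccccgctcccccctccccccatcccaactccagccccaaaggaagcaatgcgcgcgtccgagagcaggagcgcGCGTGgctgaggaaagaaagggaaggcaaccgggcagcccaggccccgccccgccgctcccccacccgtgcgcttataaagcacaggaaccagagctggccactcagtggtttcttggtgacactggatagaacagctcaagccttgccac
CA9, chr9:35673678-35673977, plus strand: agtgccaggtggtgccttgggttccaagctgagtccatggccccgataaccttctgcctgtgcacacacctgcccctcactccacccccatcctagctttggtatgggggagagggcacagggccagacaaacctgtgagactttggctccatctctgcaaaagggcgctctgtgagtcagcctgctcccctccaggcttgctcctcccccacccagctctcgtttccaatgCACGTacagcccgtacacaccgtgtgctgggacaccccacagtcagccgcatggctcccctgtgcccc

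In ANGPTL4 and CA9 the match is the ACGTG core on the other strand and begins at -234 and -18 from the start site. In ADM it reads GCGTG and begins at -101. A match is a description of letters. ANGPTL4 and CA9 had the same one, and in 786-O the first was measured and the second was not above background.

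On the treatment arrays none of the genes measured in both channels had a log2 ratio of treated over mock past 1.5 in either direction. Measured in both channels were 8 genes with bisamide at 24 h, 7 at 48 h, 6 with miR-199-3p and 7 on each of the other arrays. In PC3, 0.078% and 0.0368% of all genes were past 1.5 with bisamide at 24 h and 48 h, and 0.0107% with miR-125b-1-3p. In C4-2 with miR-199-3p it was 0.121%. On the 786-O arrays it was 0.102% for miR-532-5p and 0.149% for miR-532-3p, and on the T24 arrays 0.142% for miR-140-5p and 0.0114% for miR-140-3p. With so few genes past it, a count of 0 among 6 to 8 is near the background. None was past 1.0 with these settings either, while alternative settings gave up to 1.45 (VEGFA with bisamide at 24 h). Smaller ratios were therefore described with a size of 0.5, chosen after the values were seen. Genes with 10 spots, HIF1A, ADM and CCND1, had an SD between spots of 0.02 to 0.09 in their ratio, which covers error within an array only.

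**Figure D4:**
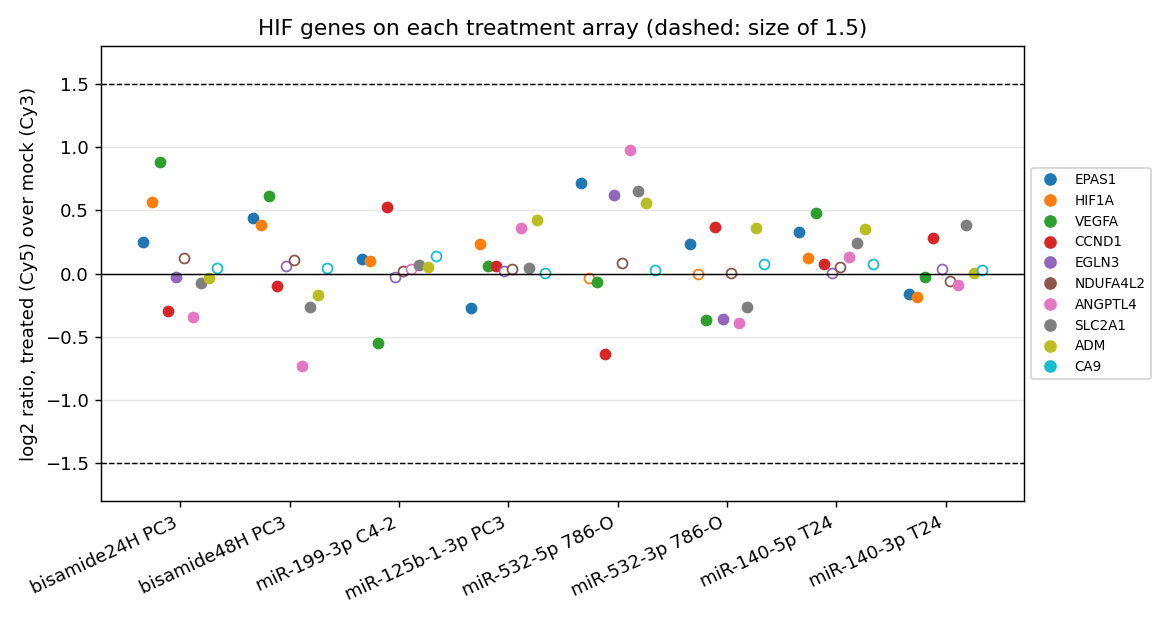
Log2 ratio of treated (Cy5) over mock (Cy3) RNA for the 10 genes on each of the 8 arrays, coloured by gene; open points were not above background in both channels and dashed lines mark 1.5. The widest spread was with miR-532-5p in 786-O, from -0.64 (CCND1) to 0.98 (ANGPTL4).

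With miR-532-5p in 786-O, 6 of 7 measured genes were past 0.5, against 7.28% of all genes, and with miR-532-3p none of 7 was, against 5.54%. ANGPTL4 had a log2 ratio of 0.98 with miR-532-5p and -0.39 with miR-532-3p. EPAS1 had 0.72 and 0.23, SLC2A1 0.65 and -0.27, EGLN3 0.62 and -0.36, and ADM 0.56 and 0.36, in the same order. CCND1 had -0.64 and 0.37, and VEGFA -0.07 and -0.37, with 0.28 and -0.05 for its second probe. Over alternative settings VEGFA ran from -0.17 to 0.10 and from -0.41 to 0.09. With median centring in place of loess, the miR-532-3p ratios of ANGPTL4 and SLC2A1 were 0.33 and 0.30, so their sign there depends on the normalization. With miR-532-5p, 5 genes were above 0.5, where 3.61% of all genes were, and CCND1 was below -0.5, where 3.67% of all genes were. HIF1A stayed below background on both arrays. These are single arrays that may share their mock RNA, and whether the strands differ was not tested.

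On the miR-532-5p array, 2 of the 7 genes here were below 0, as were 4 of 14 genes of the machinery, 10 of 18 glucose metabolism targets and 7 of 25 other hypoxia targets. The median ratio was 0.10 for the machinery, -0.05 for the glucose metabolism targets and 0.27 for the other hypoxia targets, beside 0.62 for the 7 genes here and 0.00 for all genes. On the miR-532-3p array the medians were -0.02, -0.19, 0.02 and -0.27 in the same order.

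With bisamide in PC3 the widest ratios were those of VEGFA and ANGPTL4. VEGFA had a log2 ratio of 0.88 at 24 h and 0.61 at 48 h, and its second probe 0.72 and 0.48. HIF1A had 0.57 and 0.39, with 0.23 and 0.09 for the second probe, and EPAS1 0.25 and 0.44. ANGPTL4 had -0.35 and -0.73, SLC2A1 -0.07 and -0.26, and ADM -0.04 and -0.17. Under alternative settings SLC2A1 ran up to 0.49 and 0.36, ADM up to 0.57 and 0.41, and ANGPTL4 at 24 h up to 0.01. The sign of these ratios therefore depends on the processing, while ANGPTL4 at 48 h stayed at -0.26 or below. Past 0.5 were 2 of 8 genes at 24 h, against 1.46% of all genes, and 2 of 7 at 48 h, against 1.79%. Between the first array and the second, the PC3 mocks themselves were 0.67 apart for SLC2A1, 0.63 for ANGPTL4 and 0.41 for EPAS1. They were 0.13 apart for HIF1A, 0.10 for ADM and 0.03 for VEGFA.

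The other arrays had few ratios of size. With miR-199-3p in C4-2, VEGFA had -0.55 (second probe -0.28) and CCND1 0.52, so 2 of 6 genes were past 0.5, against 4.49% of all. The VEGFA ratio there ran from -0.56 to 0.21 over alternative settings. With miR-125b-1-3p in PC3, none of 7 was past 0.5 (2.65% of all genes), and ADM was highest at 0.42. With miR-140-5p in T24, all 7 ratios lay above 0, from 0.07 (CCND1) to 0.48 (VEGFA), and none was past 0.5 (4.63% of all). The second HIF1A probe was at -0.06 on that array. The median ratio over all genes was 0.01, and the share of all genes above 0 is not given here. With miR-140-3p they lay between -0.19 (HIF1A) and 0.38 (SLC2A1), and none was past 0.5 (2.09%). HIF1A ran up to 0.43 there under alternative settings.

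In the Cy5 channel, EGLN3, NDUFA4L2 and CA9 were marked above background on the C4-2 array, NDUFA4L2 also on the 48 h bisamide array and CA9 on the miR-125b-1-3p array, where the mock was not. Their Cy5 signals there were 22.3 to 24.7, and no ratio is given because 1 channel was not measured.

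Finally, genes with a profile like the HIF subunits were sought over 16 levels, both channels of the 8 arrays after loess and Aquantile normalization, among 8107 genes. Closest to EPAS1 by Pearson's r were P3H2 (0.98), ARPC2 (0.98), DSE (0.98), TRIP6 (0.97) and CD70 (0.97). Among those closest to HIF1A were CDKN2A (0.99), SMAD1 (0.98), TBC1D8 (0.98) and APRT (0.98). The points share lines, arrays and perhaps mock RNAs, so the 16 levels are not independent.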

How the data were processed

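Total RNA of mock and treated cells was labelled with Cy3 and Cy5 and hybridised on 8 two-colour arrays. Per the file headers, Feature Extraction 11.5.1.1 made the deposited signal intensity of each spot, and its log10 ratio of Cy5 over Cy3; the deposited series table held the same log ratio. Probe coordinates in the files are on GRCh37.

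Control spots and outlier spots (126 to 181 an array) were left out, no spot was saturated, and 60901 spots were averaged into 58201 probes. Background was corrected with normexp (offset 50). Cy3 was quantile normalized between arrays for mock levels, and ratios were normalized by loess within each array. With several probes of a gene, the brighter gave the gene's value. Genes were tested (20449) after a filter on dim probes, with limma 3.58.1 in R 4.3.3 over 6 mock RNAs, 4 lines and 6 pairs, with 2 residual degrees of freedom. The deposited file names carry the same second code for both 786-O and for both T24 arrays, so each pair was counted once. The median SD of the 3 PC3 mocks was 0.07 on the log2 scale. The scripts were tested on simulated data.

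The genes and lists were chosen with earlier results of these data known. Named were the 10 genes, up to 3 genes of each pathway list with the largest difference of 786-O to the mean of the other lines among those called one way against all 3, and the 5 genes most like EPAS1 and HIF1A, of which 1 is not reported here. Alternatives were other background corrections, normalizations, filters, probe summaries and mock sets.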

Additional observations from a re-analysis of the deposited data

Results flagged for a closer look

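In 786-O, 4 genes had log2 ratios of opposite sign with the 2 strands of miR-532. ANGPTL4 was at 0.98 with miR-532-5p and -0.39 with miR-532-3p, CCND1 at -0.64 and 0.37, EGLN3 at 0.62 and -0.36, and SLC2A1 at 0.65 and -0.27. They were picked for opposite signs with both values past 0.25 in size. With median centring in place of loess, ANGPTL4 was at 0.33 and SLC2A1 at 0.30 with miR-532-3p, the same sign as with miR-532-5p. CCND1 and EGLN3 kept opposite signs under all 10 alternatives, but not all of these could change a value. Those that altered only a filter, the threshold or the probe summary returned the main ratio. The deposited table repeated the scanner ratio. Each strand had 1 array, both arrays may hold the same mock RNA, and the difference was not tested.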

How the results depend on the processing

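No paired analysis was possible because each treatment had 1 array and the replicate numbers of the mocks pair no samples between lines. Of 798 recomputed differences between lines, 698 kept their side of the threshold, 47 lost the call, 52 gained one and 1 reversed. The reversal was CCND1 between 786-O and PC3, at -0.52 without normalization between arrays. That alternative was chosen after seeing the data. A change of sign counted as a reversal only where the difference was called in at least 1 of the settings compared. The 698 therefore include changes of sign without a call, such as EPAS1 between 786-O and T24, from 0.38 to -0.52 without normalization between arrays. Under 10 alternatives on 8 arrays, no gene of the 10 was past a ratio of 1.5 among those that each alternative counted. The size of 1.0 was used only with the main ratios. Under other settings some measured ratios were past 1.0, up to 1.45 for VEGFA with bisamide at 24 h and down to -1.10 for ANGPTL4 at 48 h. With the scanner's own ratio, which counted genes measured in both channels, CA9 (2.22 with miR-199-3p) and NDUFA4L2 (1.88 with bisamide at 48 h) were left out as not above background in Cy3. In all, 37 of 56 measured ratios kept 1 sign. Causes of the changes below were not tested, apart from filters that left fewer genes.

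For the 10 genes, the count of calls between 786-O and PC3 went from 8 to 5 where signal above background was asked on all arrays, and between 786-O and T24 from 5 to 3 there and to 3 without normalization. Between C4-2 and PC3 it went from 3 to 5 with plain subtraction, with normexp at an offset of 0 and with the Cy5 channel, and to 6 with all mock channels separate or an intensity trend. Between T24 and PC3 it went from 2 to 5 with separate channels and to 4 with Cy5 or the trend, and between T24 and C4-2 from 5 to 3 with no filter. Leaving out 1 PC3 mock gave 3 to 6 calls between 786-O and T24, 3 to 6 between T24 and C4-2 and 1 to 4 between T24 and PC3.

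For the HIF machinery, calls between 786-O and C4-2 went from 7 to 11 (separate channels), 4 (Cy5), 3 (log2 difference over 1) and 2 (no normalization), with 3 to 8 when 1 PC3 mock was left out. Against PC3 they went from 6 to 3 (75th percentile of processed signal), 3 (Cy5) and 2 (over 1). Against T24 they went from 4 to 2 (plain subtraction, offset 0, and both processed signals), 8 (separate), 1 (over 1) and 9 (no normalization), with 1 to 6 when 1 mock was left out. For glucose targets, calls against C4-2 went from 9 to 14 (separate), and against PC3 from 5 to 13 (separate), 8 (Cy5), 3 (over 1) and 16 (no normalization), with 4 to 9 when 1 mock was left out. Against T24 they went from 8 to 5 (plain subtraction, offset 0, 75th percentile), 4 (Cy5) and 3 (over 1), with 3 to 7 when 1 mock was left out. For other hypoxia targets, calls against C4-2 went from 21 to 13 (above background on all arrays, and no normalization), and against T24 from 11 to 20 (separate), with 7 to 13 against T24 and 9 to 13 against PC3 when 1 mock was left out.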
